A study of Rattus norvegicus with 5 samples.

Results

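The nuclear genes of oxidative phosphorylation were described in single-nucleus RNA profiles of the ventral tegmental area (VTA) of the rat, the midbrain region that holds the dopamine neurons of the reward system. Members were all genes whose name begins with *Nduf*, *Uqcr* or *Atp5*, the genes named *Sdha*, *Sdhb*, *Sdhc* or *Sdhd* or beginning with *Sdhaf*, and those that begin with *Cox4*, *Cox5*, *Cox6*, *Cox7* or *Cox8*. The rule took 102 of the 32883 gene identifiers in the files. They carry 98 symbols, since *Cox6b1*, *Ndufa10l1*, *Ndufv3* and *Uqcrb* have 2 identifiers each, which were kept apart. Complex I has 46 members, complex II 8, complex III 9, complex IV 22 and complex V 17. Genes of the mitochondrial genome that encode the remaining subunits were no members.

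The 5 libraries each came from 1 adult male Sprague-Dawley rat, and VTA tissue of both sides was combined within an animal. Nuclei were isolated from fresh frozen tissue, and RNA was read from its 3′ end as unique molecular identifiers (UMIs), so that each captured molecule counts once. The labels give saline as the treatment of all 5 rats, whereas the paper describes them as drug-naïve, and no second condition exists. All comparisons were therefore made between barcodes of the same animals, with the rat as a block. The p-values weigh a difference within rats against how much it varied over the 5 animals of 1 condition. Some groups had a sum in 4 of these animals only.

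Oxidative phosphorylation passes electrons from NADH and succinate along complexes I to IV of the inner mitochondrial membrane and uses the resulting proton gradient in complex V, the ATP synthase. Most subunits are encoded in the nucleus, transcribed there, translated in the cytoplasm and imported, whereas a core of subunits is encoded in the mitochondrial DNA. Nuclei contain no mitochondria, and mitochondrially encoded RNA in a nuclear library is in common use as a measure of cytoplasmic RNA in it. Neurons spend much of their ATP on ion pumping, and dopamine neurons of the midbrain are known for a high oxidative load.

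Barcodes with at least 1000 UMIs and more than 200 but fewer than 5000 genes were kept, in all 29187. They were divided by their Mt share, the percentage of UMIs from genes named *Mt-*, into 12449 barcodes under 1%, 9635 at 1 to 5% and 7103 at 5% or more, and droplets of 1 to 99 UMIs were taken as cell-free RNA. The Mt share groups differed in depth, with 59571948 UMIs in the barcodes under 1%, 26456031 at 1 to 5% and 11947762 at 5% or more. Members held 1175768 of the 97975741 UMIs of the kept barcodes. Totals ran from 0 for *Ndufa1*, *Sdhaf1*, *Cox8c* and *Cox6c-ps1*, which are listed at 0 in every kept barcode, to 43873 for *Cox4i1*. The comparison of Mt share groups tested 91 members after a filter on low counts. The 11 members it left out are those 4, *Cox7b2*, *Cox8b*, *Cox6b2*, *Cox7a1*, *Ndufs6*, *Atp5pb* and 1 identifier of *Ndufa10l1*.

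The promoters of 6 members on which the results turn are printed as RefSeq gives them for the GRCr8 assembly, 250 bases before the start of the gene, in the gene's own direction. The build to which the reads were aligned is not given in the sources used here, so these positions belong to GRCr8 alone. *Cox4i1* and *Ndufa4* are subunits of complex IV by current assignment, and *Ndufa4l2* is the vascular paralog of *Ndufa4*, while *Atp5me* and *Ndufs5* stand for members that rose with the Mt share and *Sdhaf3* for the member that fell. Capitals mark GCGCA followed by any base and GCGC, on either strand (GCGC, any base, TGCGC on the other), the binding motif of nuclear respiratory factor 1 (NRF1), a known activator of respiratory genes.
Cox4i1 (chr19:65630133-65630382, plus strand): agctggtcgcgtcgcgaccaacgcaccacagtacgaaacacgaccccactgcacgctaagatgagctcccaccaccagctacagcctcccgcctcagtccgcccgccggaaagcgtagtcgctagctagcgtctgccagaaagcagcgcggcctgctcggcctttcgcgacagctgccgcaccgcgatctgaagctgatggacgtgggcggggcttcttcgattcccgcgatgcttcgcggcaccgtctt
Ndufa4 (chr4:40975560-40975809, minus strand): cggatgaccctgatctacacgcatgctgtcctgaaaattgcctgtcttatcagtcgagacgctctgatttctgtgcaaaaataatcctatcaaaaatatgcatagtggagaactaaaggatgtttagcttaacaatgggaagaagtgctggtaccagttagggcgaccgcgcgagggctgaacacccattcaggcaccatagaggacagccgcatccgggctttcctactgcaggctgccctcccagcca
Ndufa4l2 (chr7:65241919-65242168, plus strand): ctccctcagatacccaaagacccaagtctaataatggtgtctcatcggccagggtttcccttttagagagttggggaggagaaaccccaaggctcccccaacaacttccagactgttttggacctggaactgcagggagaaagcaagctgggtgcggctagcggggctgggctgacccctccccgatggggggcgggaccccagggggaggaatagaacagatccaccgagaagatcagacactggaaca
Atp5me (chr14:1464610-1464859, plus strand): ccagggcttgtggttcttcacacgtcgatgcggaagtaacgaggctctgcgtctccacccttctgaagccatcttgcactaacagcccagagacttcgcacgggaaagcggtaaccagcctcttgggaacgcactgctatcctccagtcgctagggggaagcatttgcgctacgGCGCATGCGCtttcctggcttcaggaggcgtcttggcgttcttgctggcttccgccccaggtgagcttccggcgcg
Ndufs5 (chr5:141264403-141264652, minus strand): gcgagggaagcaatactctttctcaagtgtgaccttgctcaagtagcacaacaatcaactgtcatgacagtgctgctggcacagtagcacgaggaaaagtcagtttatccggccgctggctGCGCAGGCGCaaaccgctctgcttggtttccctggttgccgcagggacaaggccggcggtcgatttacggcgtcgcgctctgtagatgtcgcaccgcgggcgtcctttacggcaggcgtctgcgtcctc
Sdhaf3 (chr4:36066713-36066962, plus strand): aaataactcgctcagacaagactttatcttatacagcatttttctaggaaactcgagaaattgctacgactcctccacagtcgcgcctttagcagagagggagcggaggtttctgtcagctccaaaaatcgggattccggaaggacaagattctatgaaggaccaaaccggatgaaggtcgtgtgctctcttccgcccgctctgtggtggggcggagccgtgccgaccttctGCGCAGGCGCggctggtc

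Of the 98 member symbols, 86 matched a RefSeq promoter. In the 300 bases from 250 before to 50 after the gene's start, 18 of them (20.9%) held the motif on either strand. Among all promoters of the same length it was present in 1292 of 27457 (4.71%), and among those of the other genes tested in the Mt share comparison in 959 of 9641 (9.95%). Members with the motif belonged to every complex but IV and included *Sdha*, *Uqcrc1*, *Ndufs5*, *Ndufa12*, *Atp5mc2*, *Atp5mc3*, *Atp5f1c* and *Sdhaf3*. The motif is carried both by members that rose, such as *Atp5me* and *Ndufs5*, and by the member that fell, *Sdhaf3*. The median log2 difference between the highest and lowest Mt share group was 2.36 for the 16 tested members with the motif and 2.62 for the 59 without it. A match describes letters in a window and does not establish a binding site.

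Libraries differed in depth and quality. Total UMIs ranged from 10193355 in rat 3 to 88576210 in rat 2, kept barcodes from 2302 to 12849, and members took 0.587 to 3.01% of a library. Rat 3 stands apart. Its group of 5% Mt share or more holds 18 barcodes with 23365 UMIs, 1516 of its neuron-like barcodes form a cluster that other rats barely share, and it gave too few astrocyte-like or vascular-like nuclei for a sum. Results that rest on rat 3 are given without it below. Barcodes with a Mt share of 5% or more were mostly in clusters that no marker list could name, 3067 of 3117 in rat 1 and 3235 of 3513 in rat 2, but 1 of 18 in rat 3. The largest unnamed clusters, of 3996 and 3927 barcodes, had medians of 1225 and 1304 UMIs, close to the cut-off of 1000. Any 2 libraries shared 0 to 23 cell barcodes.

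Transcripts of the pathway took a larger share of UMIs in barcodes that carried more mitochondrial RNA, in each of the 5 rats. Summed over members, the level was 56.5, 85.3, 38.4, 38.9 and 58.5 per 10000 UMIs in rats 1 to 5 below 1% Mt share. It was 185, 186, 39.1, 101 and 137 at 1 to 5% and 272, 356, 62.5, 186 and 285 at 5% or more. Within every rat the order was the same, with the lowest level below 1% and the highest at 5% or more, and rat 3 showed the smallest differences. The ratio of the highest to the lowest group was 1.63 in rat 3 and between 4.17 and 4.87 in the other 4 rats. The libraries themselves overlapped, since the low group of rat 2 exceeded the high group of rat 3. Mean levels were 55.5 ± 19.1, 129.6 ± 62 and 232 ± 113 per 10000 UMIs (SD, n = 5 rats).

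**Figure D1:**
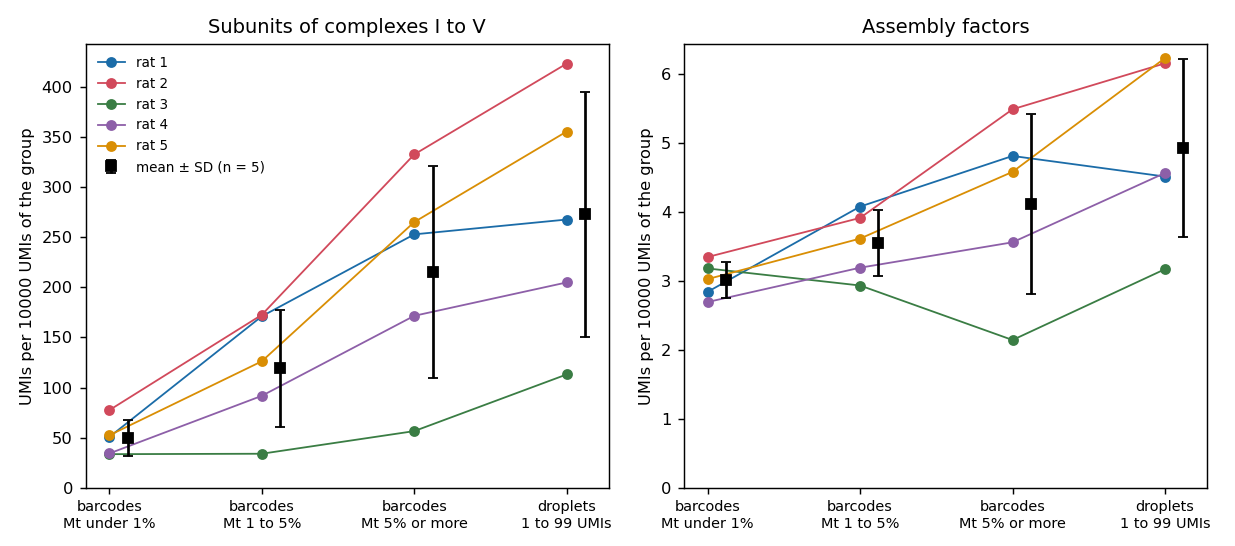
Summed level of the subunits of complexes I to V (left) and of the assembly factors (right), in UMIs per 10000 UMIs on the vertical axis. Groups are barcodes of 3 Mt share groups and droplets of 1 to 99 UMIs. Each point is 1 rat, lines join the groups of a rat, and the bar is the mean with its SD (n = 5). Subunits rise from left to right in every rat. They reach 1.69 to 5.06 times the level below 1% at 5% or more and 3.37 to 6.79 times in droplets. Assembly factors are at 0.674 to 1.69 times and 0.997 to 2.06 times, with rat 3 lowest in both.

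Gene by gene, 88 of the 91 members tested were higher at 5% Mt share or more than below 1%, 1 was lower and 2 were not called (edgeR quasi-likelihood test with Benjamini-Hochberg adjustment, threshold 0.05, UMI counts summed per rat and group). Of all 13139 genes tested, 39.9% were called higher and 33.9% lower, so members were read against a contrast that moved most genes. The median log2 difference was 2.62 for the members and 0.12 for all genes. Without rat 3, 89 members were higher and 1 lower. At 1 to 5% Mt share, 75 members were higher and 1 lower, against 25.6% and 18.6% of all genes, with a median of 1.32 (80 and 0 without rat 3). Restricted to barcodes in named clusters, 72 of 90 members were higher at 5% or more and the median was 1.61. A sum needed at least 20 such barcodes. Rat 3, with 18 at 5% or more in all, and rat 4, where 46 of 51 were unnamed, had none there. The high group of that fit thus rests on rats 1, 2 and 5. Vascular-like barcodes made up 0.93, 3.33 and 4.70% of all barcodes at 5% or more in rats 1, 2 and 5. Below 1% they made up 0.40, 0.56 and 0.75%, and the part of this class difference was not tested. The share of all genes called in the fit restricted to named clusters is not given here. Total UMIs without scale normalization moved the median of all genes to -0.34 and left 84 members higher.

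Complex I, the NADH dehydrogenase, oxidizes NADH with 7 nuclear core subunits of the *Ndufs* and *Ndufv* series and a shell of accessory subunits. All 7 core subunits and 25 of 27 accessory subunits tested were higher at 5% Mt share or more, with median log2 differences of 2.48 and 2.72. *Ndufa13*, an accessory subunit and the complex I member with the most UMIs, was at 0.918, 1.51, 0.299, 0.564 and 1.05 per 10000 UMIs in rats 1 to 5 below 1%. At 5% or more it was at 4.26, 5.96, 0, 3.22 and 5.45. It was higher in 4 rats, while rat 3 had 0 of 23365 UMIs, which allows a level of up to 1.28 (counting error only), and the groups overlapped (log2 difference 2.51 ± 0.21, adjusted p = 7.11e-10, edgeR). *Ndufs5*, an accessory subunit despite its name, rose by 3.15 on the log2 scale, in 5 of 5 rats and without overlap. Its levels were 0.335, 0.455, 0.0594, 0.198 and 0.325 per 10000 UMIs below 1%. They were 2.36, 2.32, 1.28, 1.33 and 2.59 at 5% or more. The 1.28 of rat 3 rests on few UMIs and is no higher than the level a count of 0 allows there. The lack of overlap depends on it. The exceptions were *Ndufs4*, an accessory subunit whose loss causes Leigh syndrome, and 1 identifier of *Ndufv3*. *Ndufs4* was at 1.5, 1.47, 1.84, 1.44 and 1.46 per 10000 UMIs below 1% and at 1.34, 1.57, 1.71, 1.22 and 1.19 at 5% or more, levels that overlapped and were lower in 4 of 5 rats. The fitted log2 difference was 0.23 ± 0.17 (adjusted p = 0.225, edgeR) with scale normalization and -0.15 with library totals.

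Complex II, the succinate dehydrogenase, is the only respiratory complex with all its subunits encoded in the nucleus. Its 4 subunits were each higher at 5% Mt share or more, by a median of 1.53 and at most 1.67 on the log2 scale. *Sdhc*, which anchors the enzyme in the membrane, was at 0.679, 0.824, 0.952, 0.556 and 0.596 per 10000 UMIs in rats 1 to 5 below 1% and at 2.11, 2.19, 0, 1.67 and 1.49 at 5% or more. Rat 3 had the highest level of the 5 below 1% and no UMI at 5% or more, while the other 4 rats rose (log2 difference 1.67 ± 0.23, adjusted p = 1.28e-06, edgeR). Complex III, the cytochrome bc1 complex, had 9 of 9 members higher with a median of 2.68. The range was wide within it, from 0.80 for *Uqcrc2*, a core protein of its matrix side, to 3.19. *Uqcrh*, the hinge protein, differed by 2.23 ± 0.26, adjusted p = 7.61e-08 (log2, edgeR), with 0.968, 1.58, 0.547, 0.861 and 1.34 per 10000 UMIs below 1% and 4.24, 6.32, 0, 3.33 and 5.71 at 5% or more.

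Complex IV, cytochrome c oxidase, reduces oxygen to water, and its 11 nuclear subunits tested were each higher at 5% Mt share or more. Their log2 differences lay between 2.62 and 3.24 with a median of 2.88. *Cox4i1*, the subunit 4 isoform of most tissues, was at 1.72, 2.94, 0.589, 1.06 and 1.89 per 10000 UMIs in rats 1 to 5 below 1%. It was at 7.36, 7.19, 1.02, 3.7 and 5.29 at 1 to 5% and at 11.3, 14.7, 1.71, 7.22 and 11.6 at 5% or more. It rose in each rat, while the levels of rat 3 stayed under those of the other rats in each group, so the groups overlapped (log2 difference 2.80 ± 0.22, adjusted p = 2.09e-10, edgeR). *Ndufa4*, first assigned to complex I and now to complex IV, rose without overlap from 1.06, 2.18, 0.247, 0.762 and 1.42 per 10000 UMIs to 8.04, 10.9, 2.57, 4.11 and 10.2 (log2 difference 2.98 ± 0.22, adjusted p = 5.88e-11, edgeR). In rat 3 the levels of *Cox4i1* and *Ndufa4* at 5% or more rest on few of 23365 UMIs, where a count of 0 allows 1.28. Muscle-type *Cox6a2* was called higher by 3.63, with higher levels in 3 of 5 rats, yet it held few UMIs and was listed at 0 in rats 3 and 4 at 5% or more.

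Complex V uses the proton gradient to make ATP. All 15 subunits tested were higher at 5% Mt share or more, with a median log2 difference of 2.80. *Atp5f1b*, the catalytic beta subunit, was at 1.91, 2.52, 0.609, 1.02 and 1.39 per 10000 UMIs in rats 1 to 5 below 1% and at 11.2, 13, 1.71, 7.67 and 8.93 at 5% or more, higher in each rat (log2 difference 2.80 ± 0.22, adjusted p = 1.65e-10, edgeR). The 1.71 of rat 3 rests on few of 23365 UMIs. *Atp5me*, a small membrane subunit, differed by 3.15 ± 0.19, adjusted p = 6.53e-12 (edgeR) and was higher in 5 of 5 rats. The 3 genes *Atp5mc1*, *Atp5mc2* and *Atp5mc3* encode the same mature c-ring protein, and they differed by 2.69, 2.36 and 2.92. *Atp5if1*, the inhibitor of reverse ATP hydrolysis, rose along with the subunits it inhibits, by 2.73.

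Assembly factors, which help to build complexes I and II and are not part of the finished enzymes, differed least. Their summed level at 5% Mt share or more was 0.674 to 1.69 times that below 1%, with a median over the 5 rats of 1.51, whereas that of the subunits had a median of 5. Of 11 tested, 10 were higher and 1 lower, with a median log2 difference of 0.97, and at 1 to 5% only 2 were higher, *Ndufaf3* and *Ndufaf8*. Those 2 factors, of complex I, stood near the subunits with differences of 2.31 and 2.56, while *Ndufaf2*, *Ndufaf4*, *Ndufaf5*, *Ndufaf6* and *Ndufaf7* lay between 0.53 and 0.97. The calls of *Ndufaf2* and *Ndufaf6* held in 3 and 7 of 13 alternatives, and *Ndufaf6* was at -0.043 in named clusters alone. *Sdhaf3*, a factor that protects the iron-sulphur subunit of complex II during assembly, was the one member that fell. It was at 0.258, 0.201, 0.428, 0.214 and 0.199 per 10000 UMIs in rats 1 to 5 below 1%, at 0.208, 0.112, 0.405, 0.109 and 0.141 at 1 to 5% and at 0.142, 0.0321, 0.856, 0.111 and 0.0411 at 5% or more. It was lower in 4 rats and higher in rat 3, whose value comes from the 18 barcodes named above (log2 difference -1.08 ± 0.28, adjusted p = 0.00133, edgeR). Without rat 3 the difference was -1.36 (adjusted p = 0.000373, edgeR), without rat 1 it was -1.76 and without rat 2 -0.77. Its call at 1 to 5% (-0.52 ± 0.20, adjusted p = 0.0421, edgeR) was lost when rat 2, 3, 4 or 5 was left out.

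**Figure D2:**
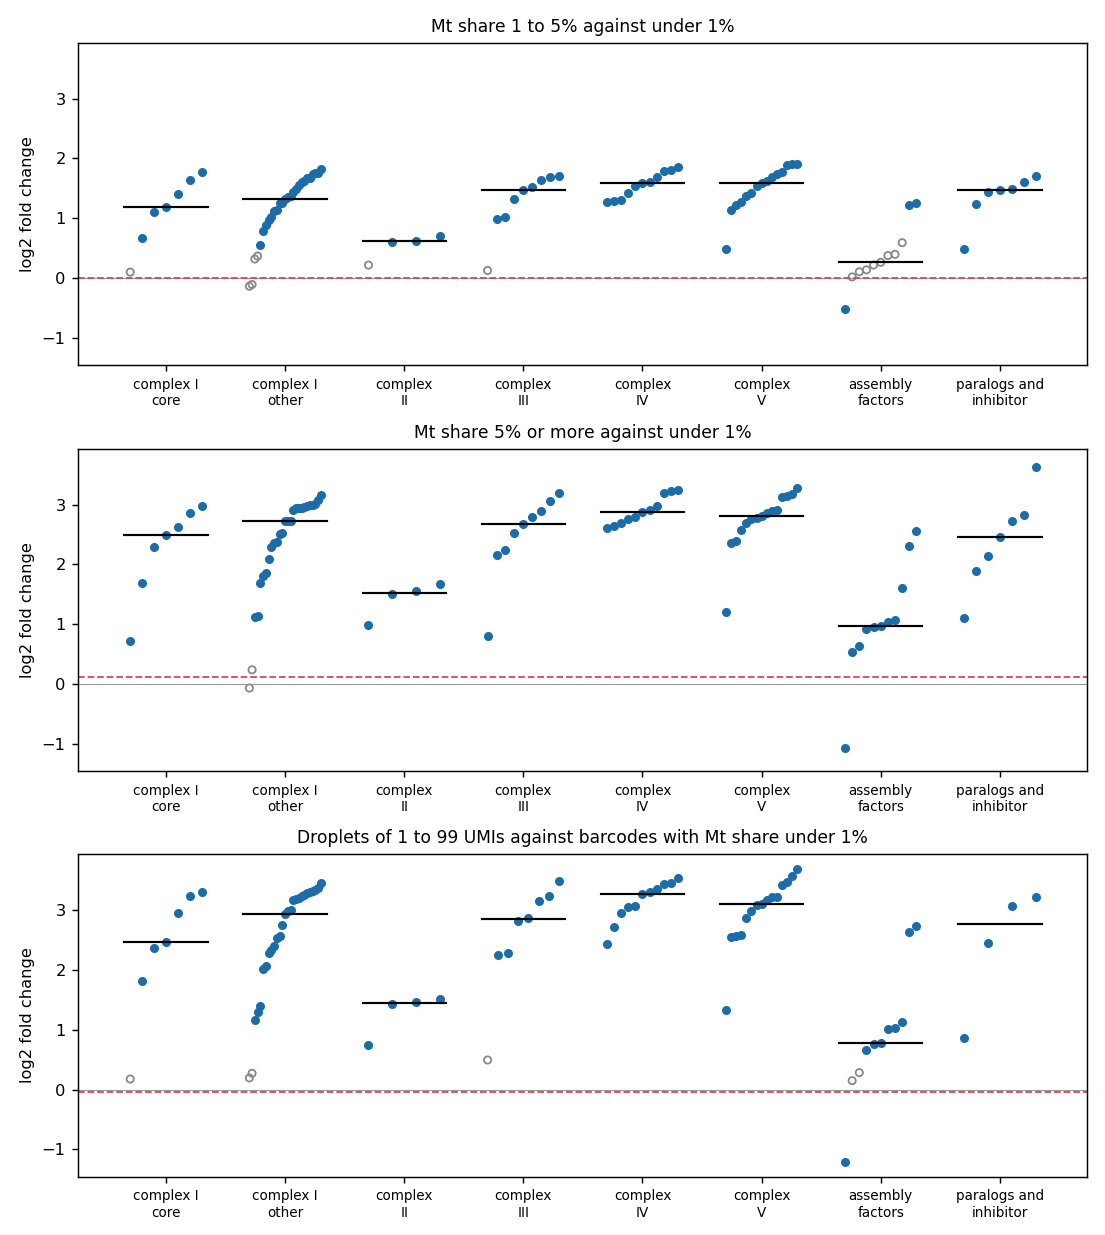
Log2 difference of each tested member, grouped by complex and role on the horizontal axis, for barcodes with a Mt share of 5% or more and for droplets of 1 to 99 UMIs, each against barcodes under 1%. Filled points passed an adjusted p of 0.05, open points did not, bars are group medians and the dashed line is the median of all genes; subunits of complexes I, III, IV and V have medians between 2.57 and 2.88 in the Mt share comparison, complex II lies at 1.53 and assembly factors at 0.97.

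Cell-free RNA was rich in these transcripts as well. The median droplet held 1 UMI in every rat, and droplets were not tested against barcodes of 5% Mt share or more. In droplets of 10 to 49 UMIs of rat 4, members held 350 of 20942 UMIs, a lower share than in its group of 5% or more. In droplets of 1 to 99 UMIs the summed level was 287, 452, 126, 221 and 381 per 10000 UMIs in rats 1 to 5, which exceeded the barcodes under 1% in each rat, 3.28 to 6.52 times. Of 87 members tested, 80 were higher in droplets and 1 lower (edgeR), where 33.7% of all genes were called higher and 32.9% lower. *Cox4i1* was at 12.2, 19.5, 6.92, 9.77 and 17.1 per 10000 UMIs in the droplets, all above the highest nuclear value below 1% (log2 difference 3.31 ± 0.25, adjusted p = 6.63e-07, edgeR). *Sdhaf3* was again lower, at 0.178, 0.0499, 0.0831, 0.152 and 0.0469, without overlap and in 5 of 5 rats (log2 difference -1.21 ± 0.29, adjusted p = 0.00261, edgeR). The 6 members not called were *Ndufs4*, *Ndufs1*, 1 identifier of *Ndufv3*, *Uqcrc2*, *Ndufaf2* and *Ndufaf4*, with differences between 0.15 and 0.50. The droplets and the high Mt share group were both compared with the same barcodes, so their values are not independent of each other. Complex IV subunits differed by a median of 3.28 in droplets and 2.88 at high Mt share, complex II subunits by 1.45 and 1.53, and assembly factors by 0.78 and 0.97.

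The Mt share groups differ in cell types, so the comparison was repeated within the neuron-like and the oligodendrocyte-like nuclei, the 2 largest classes, which were clustered without the members and without mitochondrial genes. Within neuron-like nuclei of 4 rats, 53 of 88 members were higher at 1 to 5% Mt share than below 1% and 0 lower, with 1 lower at an unadjusted p under 0.05 (edgeR) and 0 lower by DESeq2. The share of all genes called was 8.04% higher and 3.05% lower. Within oligodendrocyte-like nuclei of 5 rats, 49 were higher and 0 lower, with 1 lower at an unadjusted p under 0.05 (edgeR) and 0 by DESeq2, and the background was 8.54% and 2.26%. *Cox6a1* was at 0.78, 1.77, 0.246, 0.368 and 0.891 per 10000 UMIs in neuron-like nuclei of rats 1 to 5 below 1% and at 3.64, 0.495, 3.11 and 3.27 in rats 2 to 5 at 1 to 5%. It was higher in 4 of 4 rats and the groups overlapped (log2 difference 1.62 ± 0.20, adjusted p = 5.46e-06, edgeR). In oligodendrocyte-like nuclei its difference was 0.75 ± 0.18, adjusted p = 0.00725 (log2, edgeR). A test of the difference between the classes called 0 members (edgeR), with 15 at an unadjusted p under 0.05 and 0 by DESeq2, where 0.389% of all genes were called higher and 1.32% lower. Without rat 5 the counts of higher members fell to 29 in neuron-like and 15 in oligodendrocyte-like nuclei, and without rat 1 the latter was 31. Without rat 3 they were 60 and 62, and 1 member was called lower for the difference.

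Estimated free RNA moved with the Mt share in these classes. Read from markers of the other classes, a measure that also counts true low expression of those markers, it was 7.81 to 15.2% of UMIs in neuron-like nuclei below 1% and 18.3 to 65.1% at 1 to 5%, and 23.3 to 37% and 38.9 to 49.8% in oligodendrocyte-like nuclei. After this share of each rat's droplet profile was subtracted, 41 members passed the filter and 0 were called in either class (edgeR), with 6 at an unadjusted p under 0.05 in neuron-like and 1 in oligodendrocyte-like nuclei. Of all genes in that fit 0.0740% were called higher and 0.0185% lower in neuron-like nuclei, and 0.0555% and 0.00925% in oligodendrocyte-like nuclei. The summed level then was 33.9, 18.6, 30.5, 15.7 and 15.9 per 10000 UMIs in neuron-like nuclei of rats 1 to 5 below 1% and 17.7, 27.4, 10.6 and 13.7 in rats 2 to 5 at 1 to 5%. In oligodendrocyte-like nuclei it was 7.13, 5.74, 17.4, 6.40 and 5.24 below 1% and 6.29, 4.29, 13.6, 5.25 and 4.53 at 1 to 5%. Within each rat with both groups the subtracted level was lower at 1 to 5%, opposite to the counts as deposited. Droplets are rich in members, so subtraction takes more of them where the estimate is higher, as it was at 1 to 5%. The estimate may also be too high, so no direction was read from the subtracted levels.

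Classes of nuclei were compared among barcodes under 5% Mt share. Summed levels per 10000 UMIs in rats 1 to 5 were 61.3, 87.7, 39.4, 36.4 and 55.5 in neuron-like nuclei and 64.6, 126, 31.4, 40.9 and 74.8 in oligodendrocyte-like nuclei. They were 56.6, 120.3, 33, 37.7 and 65.8 in nuclei like oligodendrocyte precursor cells (OPCs) and 95.1, 166, 32.4, 46.7 and 94 in microglia-like nuclei. Rats 1, 2, 4 and 5 gave 66.3, 141, 45.6 and 95.4 in astrocyte-like and 114, 188, 71.3 and 138 in vascular-like nuclei. Vascular-like nuclei were highest in each of those 4 rats, and rat 2 was highest in every class. The Mt share of the sums moved with the class, 2.63, 2.63, 1.25 and 2.43% in vascular-like against 0.546, 0.7, 0.147 and 0.361% in neuron-like nuclei of rats 1, 2, 4 and 5, and its part in these levels was not tested. Different clusters hold a class in different rats. Oligodendrocyte-like nuclei of rat 2 lie mainly in a cluster with 2391 of its barcodes and those of rat 4 in another with 1810, while most neuron-like barcodes of rat 3 are in the cluster named above.

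Estimated free RNA differed between classes as well. It was 10.7 to 17.5% of UMIs in neuron-like, 16.4 to 41.9% in astrocyte-like, 21.3 to 43.7% in OPC-like, 30.8 to 45.6% in oligodendrocyte-like, 34.5 to 66% in vascular-like and 45.6 to 64.6% in microglia-like nuclei. After subtraction the mean summed level was 22.7 ± 8.88 per 10000 UMIs in neuron-like and 7.71 ± 4.55 in oligodendrocyte-like nuclei (SD, n = 5 rats). Neuron-like nuclei then exceeded oligodendrocyte-like nuclei in each rat, 34.2, 18.1, 30.3, 15.4 and 15.5 against 6.72, 4.76, 15.7, 6.36 and 4.98. In vascular-like nuclei it was 10.8 ± 6.13 and in astrocyte-like nuclei 14.7 ± 6.03 (n = 4 each). The subtraction left 63 of 102 members at 0 in oligodendrocyte-like sums, against 6 before, and 6 in neuron-like sums, so fold changes between these classes after it were not read.

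**Figure D3:**
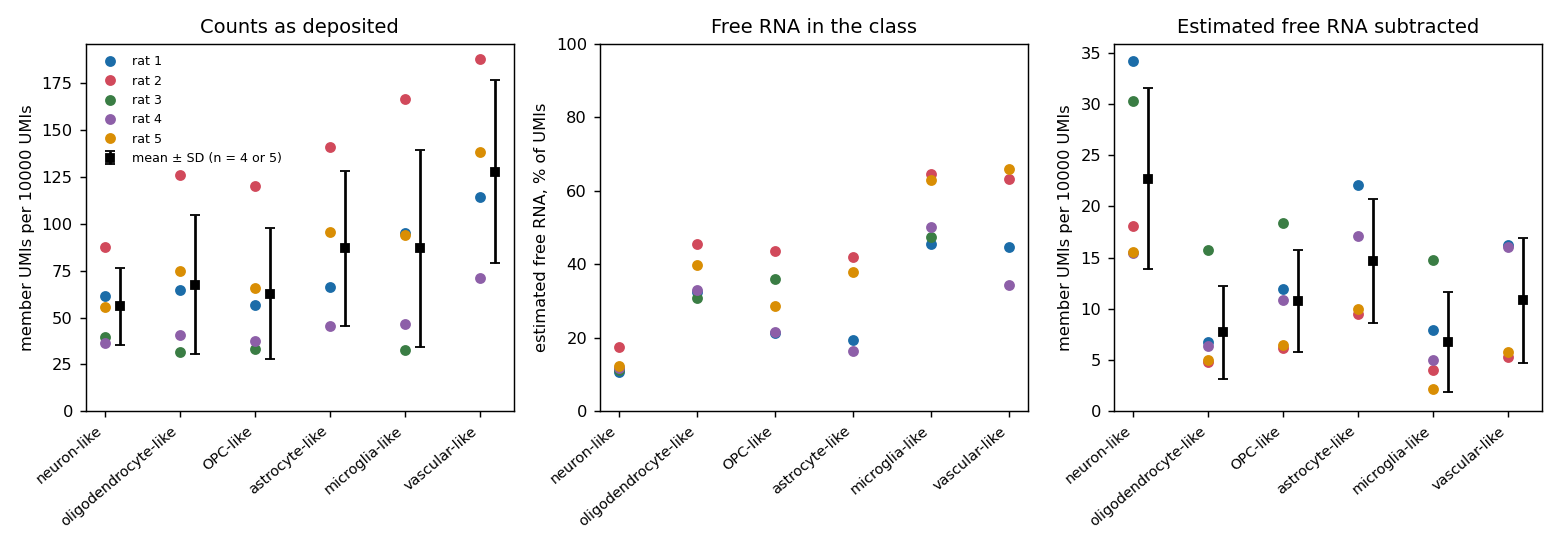
Summed level of the members in 6 classes of nuclei with a Mt share under 5%, in UMIs per 10000 UMIs, from counts as deposited (left) and after subtraction of estimated free RNA (right), with the estimated free RNA in percent of UMIs between them; each point is 1 rat and the bar is the mean with its SD (n = 4 or 5 rats). As deposited, vascular-like nuclei are highest with 71.3 to 188, and after subtraction neuron-like nuclei have a mean of 22.7 over 5 rats, though in rat 4 astrocyte-like (17.1) and vascular-like nuclei (16) lie above neuron-like nuclei (15.4).

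Between the 2 largest classes, most subunits tested were lower in neuron-like than in oligodendrocyte-like nuclei, and 5 of 10 assembly factors were higher. With counts as deposited, 61 of 88 members tested were lower in neuron-like nuclei and 8 higher (edgeR), against 35.5% and 34.1% of all genes. The median was -0.55 on the log2 scale. Without rat 5, 37 were lower and 8 higher, and without rat 3, 68 and 7. These counts depend on the treatment of free RNA. After subtraction, 38 members passed the filter, 29 were called higher in neuron-like nuclei and 0 lower (edgeR), with 0 lower at an unadjusted p under 0.05, where 39.7% of all genes in that fit were called higher and 20.2% lower. Since the subtraction set 63 members to 0 in the oligodendrocyte-like sums, members could pass that filter through the neuron-like sums alone, and no direction was read from these calls. With nuclei assigned by their own marker counts in place of clusters, 5 were lower and 7 higher, with a median of -0.09. The number tested and the share of all genes called in that fit are not given here.

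Of the subunits, all 11 of complex IV and 13 of 15 of complex V tested were lower in neuron-like nuclei. *Sdhd*, the second membrane anchor of complex II, was at 0.277, 0.374, 0.194, 0.213 and 0.264 per 10000 UMIs in rats 1 to 5 in neuron-like and at 0.594, 0.635, 0.346, 0.498 and 0.553 in oligodendrocyte-like nuclei. It was lower in 5 of 5 rats, with rat 2 of the neuron-like overlapping rat 3 of the oligodendrocyte-like nuclei (log2 difference -1.23 ± 0.14, adjusted p = 2.44e-09, edgeR). The other 3 subunits of complex II were not called. *Cox6a1*, the common form of subunit 6a, differed by -1.09 ± 0.17, adjusted p = 1.35e-06 (log2, edgeR), lower in 5 of 5 rats. *Cox4i1* was lower in 4 rats and higher in rat 3, 1.78, 3.02, 0.644, 0.901 and 1.79 per 10000 UMIs against 2.2, 4.74, 0.519, 1.21 and 2.76 (log2 difference -0.62 ± 0.17, adjusted p = 0.00152, edgeR).

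The 8 members higher in neuron-like nuclei were the assembly factors *Ndufaf4*, *Ndufaf5*, *Ndufaf6*, *Ndufaf7* and *Sdhaf3*, the accessory subunits *Ndufc1* and *Ndufa9*, and *Uqcrc2*. *Ndufaf4*, a factor of complex I assembly, was at 0.277, 0.21, 0.0837, 0.173 and 0.207 per 10000 UMIs in neuron-like nuclei of rats 1 to 5 and at 0.0833, 0.109, 0.0577, 0.0811 and 0.111 in oligodendrocyte-like nuclei. Only rat 3 of the neuron-like nuclei fell within the range of the oligodendrocyte-like nuclei (log2 difference 0.83 ± 0.19, adjusted p = 0.000363, edgeR). *Uqcrc2* did not overlap, with 1.84, 1.75, 2.82, 1.61 and 1.61 against 1.27, 1.35, 1.41, 1.01 and 1.24 (log2 difference 0.35 ± 0.12, adjusted p = 0.0112, edgeR). *Ndufaf6*, *Ndufaf5* and *Ndufaf7* differed by 0.64, 0.49 and 0.37, each higher in 5 of 5 rats. *Ndufaf3* and *Ndufaf8* went the other way, by -0.79 and -0.54. Summed over assembly factors, the ratio of neuron-like to oligodendrocyte-like levels was 1.08 to 1.38, above 1 in 5 of 5 rats, while for the subunits it was 0.684 to 1.29 and above 1 in rat 3 alone.

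**Figure D4:**
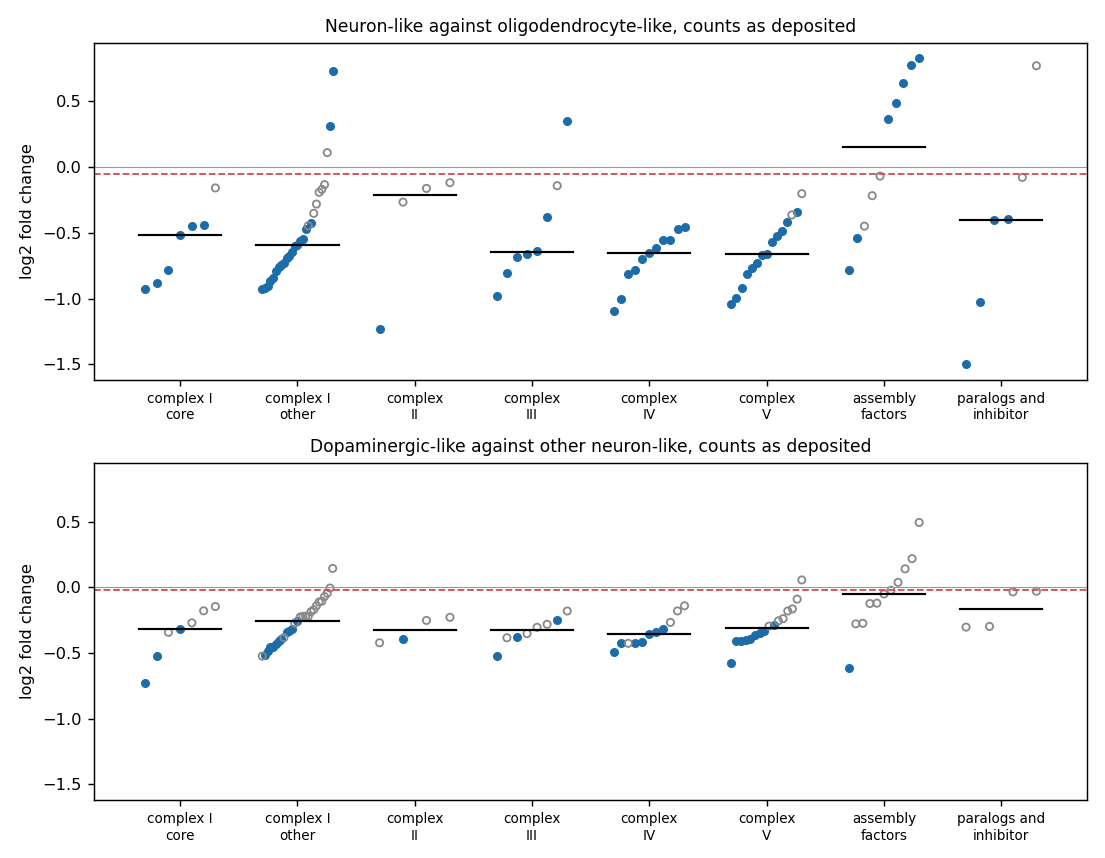
Log2 difference of each tested member, grouped by complex and role, between neuron-like and oligodendrocyte-like nuclei and between dopaminergic-like and other neuron-like nuclei, from counts as deposited. Filled points passed an adjusted p of 0.05, open points did not, bars are group medians and the dashed line is the median of all genes; 61 members are lower in neuron-like nuclei and 35 in dopaminergic-like nuclei, and assembly factors have the highest medians, 0.15 and -0.05.

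Vascular-like nuclei carried the paralogs *Ndufa4l2* and *Cox4i2*, which can take the place of *Ndufa4* and *Cox4i1* in complex IV and are known as genes of low-oxygen conditions and of vessel wall cells. *Ndufa4l2* was at 0.621, 0.39, 0.47 and 0.467 per 10000 UMIs in vascular-like nuclei of rats 1, 2, 4 and 5 and at 0.00988, 0.0226, 0.00262, 0.00828 and 0.0176 in neuron-like nuclei of rats 1 to 5. *Cox4i2* was at 0.621, 0.376, 0.47 and 0.288 in the vascular-like and at 0, 0.0098, 0, 0.0071 and 0.00293 in the neuron-like nuclei, where a count of 0 allows up to 0.0297 in rat 1 and 0.00785 in rat 3. Both were higher than the mean of the other classes in 4 of 4 rats, without overlap with those means. The differences were 5.22 ± 0.37, adjusted p = 3.61e-13 and 4.39 ± 0.44, adjusted p = 3.63e-09 (log2, edgeR). Both paralogs could pass the filter on low counts through the vascular-like sums alone, so these p-values are no support beyond the levels. *Ndufa4* and *Cox4i1* themselves were higher by 0.65 and 0.72, calls that held in 12 and 13 of 16 alternatives. In nuclei under 1% Mt share, where the vascular-like sum is that of rat 4 alone, *Ndufa4* was at -1.11.

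Within the 409 vascular-like nuclei, both paralogs were concentrated in 2 of 7 sub-clusters, numbered 2 and 4. *Cox4i2* was at 1.29 (0.704 to 2.16) and 1.3 (0.848 to 1.9) per 10000 UMIs there (exact Poisson 95% interval, counting error only) and at most 0.135 in the others. *Ndufa4l2* was at 1.19 (0.636 to 2.04) and 1.45 (0.97 to 2.08), and at most 0.225 elsewhere. Sub-cluster 6 held 0 UMIs of either paralog, which allows up to 0.453 per 10000 UMIs. In sub-cluster 4, 47.5% of 40 nuclei held a *Cox4i2* UMI at a median depth of 3950.5 UMIs, against 0.383% of neuron-like nuclei at 5465 UMIs. In sub-clusters 2 and 4 *Cox4i1* was at 7.81 and 4.99 per 10000 UMIs, within the range of 3.45 to 8.63 in the other 5. Sub-cluster 4 had the lowest *Ndufa4* level, 2.6 (1.94 to 3.41), and sub-cluster 0 the highest, 7.91 (6.79 to 9.17). Sub-clusters were drawn from these same nuclei, so these levels are a description.

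**Figure D5:**
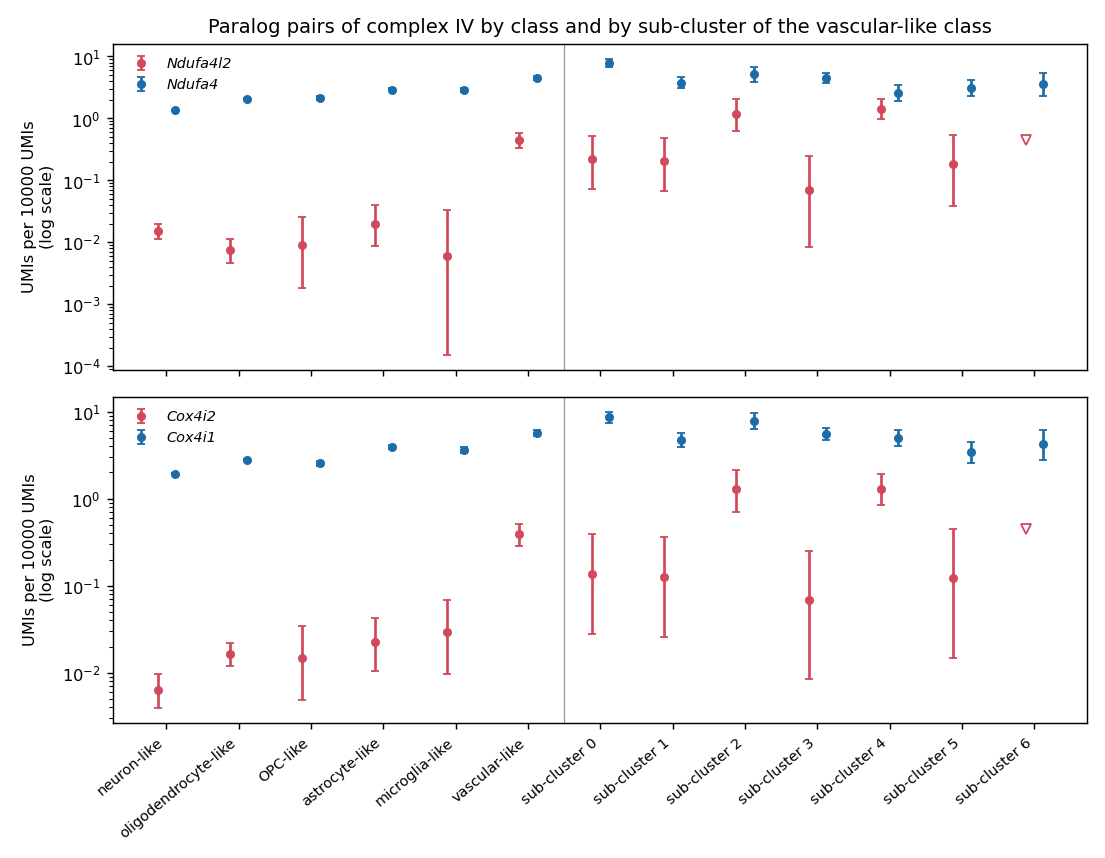
Level of *Cox4i1*, *Cox4i2*, *Ndufa4* and *Ndufa4l2* in UMIs per 10000 UMIs, on a log axis, in 6 classes of nuclei and in 7 sub-clusters of the vascular-like nuclei; bars are exact Poisson 95% intervals over all rats together, and open triangles mark the level that a count of 0 allows. *Cox4i2* and *Ndufa4l2* stand highest in sub-clusters 2 and 4, at 1.29 and 1.3 and at 1.19 and 1.45; in the vascular-like class as a whole they are at 0.388 and 0.443.

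Against the mean of the other classes, vascular-like nuclei had 56 of 88 members higher and 0 lower (edgeR), with 2 lower at an unadjusted p under 0.05 and 0 lower by DESeq2, against 19.3% and 14.0% of all genes. Without the free RNA, which made up 34.5 to 66% of their UMIs, 5 of 38 were higher, beside 20.2% of all genes in that fit. Members could pass that filter through the neuron-like sums, and 48 of 102 were at 0 in the vascular-like sums, so no direction was read. This limit holds for the other classes after subtraction too. With counts as deposited but without rat 5, 33 were higher in vascular-like nuclei. With nuclei typed by their own markers 9 were higher, and in nuclei under 1% Mt share, where the vascular-like sum is that of rat 4 alone, 2 were. Neuron-like nuclei had 7 higher and 65 lower, with a background of 33.2% and 33.9%. After subtraction of free RNA, with the limit given above, they had 30 higher and 1 lower of 38 (37.8% and 14.9% of all genes in that fit), in nuclei under 1% Mt share 7 and 19, and with nuclei typed by their own markers 7 and 7. Astrocyte-like nuclei had 9 higher and 0 lower (edgeR, 0 lower at an unadjusted p under 0.05 and 0 by DESeq2), where 20.8% and 18.0% of all genes were called, and 5 were higher without rat 4 or rat 5. Their higher count rose after subtraction of free RNA, and it fell to 3 in nuclei under 1% Mt share and to 1 without the replicate block. Oligodendrocyte-like nuclei had 7 higher and 2 lower (background 29.1% and 30.5%), but 2 and 4 with the size factors of DESeq2 and 2 and 23 with library totals, so no direction was read. Microglia-like nuclei had 5 higher and 4 lower (16.2% and 15.2%), but 10 and 4 with those size factors and 22 and 1 with library totals. They had 0 and 8 with free RNA subtracted, and 0 and 0 with nuclei typed by their own markers or under 1% Mt share. With doublets kept 0 were higher, so no direction was read here either. Leaving out 1 rat gave 2 (rat 4 or 5) to 12 (rat 3) higher in oligodendrocyte-like and 0 (rat 1 or 5) to 11 (rat 3) in microglia-like nuclei. OPC-like nuclei had 1 higher and 25 lower (19.3% and 19.8%), with *Uqcr11*, a small subunit of complex III, lowest at -0.65 among those lower in every rat. Their lower count was 11, 15, 8 and 6 without rat 1, 2, 4 and 5, and it was 3 in nuclei under 1% Mt share, 0 after subtraction of free RNA (8.01% of all genes in that fit) and 59 with nuclei typed by their own markers. Of the barcodes so typed as OPC-like, 963 lay in OPC-like, 512 in neuron-like and 514 in oligodendrocyte-like clusters. The share of all genes called is not given here for this typing, nor for nuclei under 1% Mt share.

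*Sdhaf3* differed between classes. It was at 0.539, 0.236, 0.366 and 0.259 per 10000 UMIs in astrocyte-like nuclei of rats 1, 2, 4 and 5 and at 0.0527, 0.111, 0.157, 0.039 and 0.0348 in microglia-like nuclei of rats 1 to 5. Against the mean of the other classes it was higher in astrocyte-like nuclei, in 4 of 4 rats and without overlap with those means, by 1.22 ± 0.24, adjusted p = 8.2e-05 (log2, edgeR). In microglia-like nuclei it was lower in 5 of 5 rats, again without overlap, by -1.66 ± 0.42, adjusted p = 0.00229, on 12 UMIs in all. It was also higher in OPC-like nuclei, by 0.93 ± 0.24 in 4 of 5 rats, and in neuron-like nuclei, by 0.70 ± 0.18 in 5 of 5 rats, with overlap (adjusted p = 0.00284 and 0.00122, edgeR). *Uqcrc2* was higher in astrocyte-like nuclei by 0.51 and lower in microglia-like nuclei by -0.41. *Sdhd* led the oligodendrocyte-like nuclei, higher by 0.74 ± 0.11, adjusted p = 1.31e-06 in 5 of 5 rats (edgeR).

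Dopaminergic-like neurons, sub-clusters defined by markers such as *Th* and *Slc6a3*, were compared with the other neuron-like nuclei. Their summed level was 71.1, 33.9, 31.3 and 46.3 per 10000 UMIs in rats 2 to 5, and rat 1 gave too few for a sum. Of rat 3, 310 such nuclei form a sub-cluster of 311 that has *Ddc* but neither *Th* nor *Slc6a3* among its 10 leading genes, and most of its other neuron-like nuclei also lie in sub-clusters of its own, 1 of them with the astrocyte marker *Gja1* among its leading genes. The other neuron-like nuclei were at 61.2, 91.4, 40.5, 37.4 and 57.9 in rats 1 to 5. The ratio was 0.777 to 0.837, below 1 in 4 of 4 rats, while the levels overlapped between animals. After subtraction of free RNA the levels were 18.9, 29.8, 18.7 and 16.7 in dopaminergic-like and 18.3, 30.6, 15.3 and 15.7 in other neuron-like nuclei of rats 2 to 5, higher in 3 of 4 rats. Of 88 members tested, 35 were lower in dopaminergic-like nuclei and 0 higher (edgeR), with 0 higher at an unadjusted p under 0.05 and 0 by DESeq2. The background was 13.4% of all genes lower and 12.2% higher.

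*Ndufv1*, the core subunit of complex I that binds NADH, was at 0.314, 0.106, 0.102 and 0.17 per 10000 UMIs in dopaminergic-like nuclei of rats 2 to 5 and at 0.368, 0.551, 0.196, 0.201 and 0.24 in the other neuron-like nuclei of rats 1 to 5. It was lower in 4 of 4 rats and the groups overlapped (log2 difference -0.73 ± 0.15, adjusted p = 0.00193, edgeR). *Atp5f1b* was at 2.07, 0.363, 0.522 and 0.969 against 2.01, 2.92, 0.728, 0.955 and 1.35, lower in 4 of 4 rats (log2 difference -0.58 ± 0.10, adjusted p = 0.000464, edgeR). *Uqcrh* and *Ndufaf7* differed by -0.52 and -0.61, and *Cox4i1* by -0.31 ± 0.09, adjusted p = 0.0151 (log2, edgeR). *Ndufaf7*, a methyltransferase that acts on complex I, was the only assembly factor called.

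The number of these calls changed with the setting. Estimated free RNA was 4.36 to 12.6% of UMIs in dopaminergic-like and 10.7 to 18.6% in other neuron-like nuclei, and after its subtraction 8 of 59 members were higher and 4 lower, against 10.8% and 11.4% of all genes in that fit, with *Atp5f1b* and *Cox5a* turned to higher. DESeq2 called 4 lower, 7 were called without rat 2, 36 without rat 3 and 23 without rat 5, and nuclei under 1% Mt share gave 15. A further cluster of 1571 barcodes with *Slc6a3*, *Th* and *Ddc* among its leading genes and a median Mt share of 2.43% could not be named under the thresholds used. Nor could another of 667 barcodes, led by *Slc6a3*, *Th* and *Slc18a2*, with a median of 4.32%. Neither is in any of these sums. Rat 2 had 906 and 635 barcodes in these clusters, beside 273 nuclei in its dopaminergic-like sum. Their part in these calls was not tested.

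Other genes of energy metabolism and translation were counted in the same fits. At 5% Mt share or more, where 39.9% of all genes were higher and 33.9% lower, 25 of 36 further assembly factors and carriers of the pathway were higher and 6 lower, with a median log2 difference of 1.16. Of the tricarboxylic acid cycle, which feeds NADH and succinate into the chain, 12 of 15 were higher (median 1.40). Glycolysis, a cytosolic pathway, had 13 of 14 higher with a median of 2.62, where the members had 2.62. The proteins of the mitochondrial ribosome, which are nuclear genes as well, had 67 of 72 higher (median 1.75), and those of the cytosolic ribosome 79 of 89 (median 3.26). Of 9 nuclear regulators of these genes, such as *Nrf1*, 2 were higher and 3 lower.

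The lists parted in the comparison of classes. In vascular-like nuclei, where 19.3% of all genes were higher, 67 of 79 cytosolic ribosomal proteins were higher, 7 of 13 genes of glycolysis and 2 of 66 of the mitochondrial ribosome. In neuron-like against oligodendrocyte-like nuclei, where 35.5% of all genes were lower, 70 of 79 cytosolic and 40 of 66 mitochondrial ribosomal proteins were lower. In dopaminergic-like against other neuron-like nuclei, where 13.4% of all genes were lower and 12.2% higher, 9 of 15 genes of the tricarboxylic acid cycle and 6 of 13 of glycolysis were lower, whereas the cytosolic ribosome had 3 lower and 1 higher of 81. The lists overlap in no gene with the members, and the part of free RNA in these counts was not tested.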

How the data were processed

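Nuclei of 5 VTA libraries were profiled, and the deposited files hold UMI counts per gene and barcode, unfiltered. Per the labels the authors made these counts with Cell Ranger 8.0.1, whereas the matrix headers name Cell Ranger 4; the genome build and annotation are not given in the sources used here, nor how reads of near-identical copies were counted, which leaves paralogs and the symbols with 2 identifiers uncertain. No column of another sample was present.

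Barcodes with at least 1000 UMIs and more than 200 but fewer than 5000 genes were kept. All kept barcodes were clustered by the Leiden method (scanpy 1.11.5, leidenalg 0.10.2, 2000 variable genes, 20 components, resolution 1) without the members and without mitochondrial genes, and named X-like from marker lists, and classes were compared among barcodes under 5% Mt share; the thresholds for naming were set after the clusters were seen. Scrublet's own threshold marked 0 to 3 barcodes per rat and did not work, so the highest scores were removed at 0.8% per 1000 barcodes (26 to 697 per rat, 1.43 to 7.47%). Counts were summed per rat and group, with at least 20 nuclei for a class. The Mt share groups had no minimum, and rat 3 had 18 barcodes at 5% or more. Within named clusters alone the minimum of 20 held for them too. The sums were tested with edgeR 4.0.16 (filterByExpr, TMM, glmQLFit and glmQLFTest, R 4.3.3), with the rat as a block. Benjamini-Hochberg adjustment covered all genes tested, with a threshold of 0.05. Sums of 1 animal pair by design, and deviations from the group means correlated within a rat with a median of 0.437 for the Mt share groups and 0.294 for the classes. Levels are UMIs per 10000 UMIs of a sum, and fold changes are log2. Intervals and shares of single groups cover counting error only.

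Free RNA in a class was estimated from the markers of the other classes against the droplet profile of the same rat. On simulated counts with 2-fold changes the test recovered 75% for the Mt share groups, 71% for droplets and 90% between classes. It recovered 57% for dopaminergic-like neurons and 55% within neuron-like nuclei. With 1.5-fold changes it recovered 13, 7, 16, 6 and 3% in the same order. Changed genes were drawn only from those with enough UMIs in the smallest sum of a fit, at a fixed spread. Recovery thus was not measured for members with fewer UMIs, such as *Sdhaf3* in the Mt share groups. Alternatives were DESeq2 1.42.0, its size factors, library totals, no filter, other cut-offs and typing, each rat left out and no block. Named in each comparison were up to 8 members with the largest change in each direction that had the same sign in every rat, the member with the most UMIs of each complex, paralog sets, and members that went against the rest, and the assembly factors and other members outside this rule were named after their values were seen. Members, lists and tests were chosen with earlier results of these data known.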

Additional observations from a re-analysis of the deposited data

How the results depend on the processing

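Depth limits most the sums of rat 3, the microglia-like and vascular-like classes and the members with few UMIs. Of the counts of members called, recomputed under each alternative, 302 stayed within 1.5 times the value reported and 118 did not, while 87 recomputed summed levels moved by less than 1 SD. Those 87 leave out subtraction of free RNA, which moved the mean level from 56.1 to 22.7 in neuron-like and from 67.5 to 7.71 in oligodendrocyte-like nuclei. The share of all genes called is given here for the main comparisons and for subtraction of free RNA alone. Of the values of named genes, 1880 kept direction and side of the threshold, 303 fell under the threshold and 3 rose past it in the same direction, and 23 turned. Turned in sign, as log2 differences, were *Atp5f1b* (0.46) and *Cox5a* (0.40) in dopaminergic-like nuclei after subtraction of free RNA, and under 1% Mt share *Ndufaf6* in oligodendrocyte-like (1.07), *Ndufa7* (-1.72) and *Ndufa4* (-1.11) in vascular-like nuclei. Under 1% Mt share only rat 4, with 31 vascular-like barcodes before doublets were removed, gave a vascular-like sum, so that arm is 1 animal assumed to vary like the other groups. At 5% Mt share or more the uncalled *Ndufs4* was at -0.010 with at least 2000 UMIs, -0.15 with library totals, -0.031 with mitochondrial genes left out, -0.010 without the filter, -0.090 to 0.24 with 1 rat left out (below 0 without rat 2) and -0.21 in named clusters, where *Uqcrc2* was at -0.031 and *Ndufaf6* at -0.043. Of members not called in droplets, *Ndufs1*, *Ndufs4* and *Ndufaf2* were at -0.043, -0.61 and -0.60 in droplets of 10 to 49 UMIs and at -0.040, -0.017 and -0.064 with library totals. *Ndufs1* was at -0.017 without the filter and -0.071 to 0.44 with 1 rat left out (below 0 without rat 1), and *Ndufaf2* at -0.043 without the filter and -0.0029 to 0.38 with 1 rat left out (below 0 without rat 5). The causes were not tested. The 3 alternatives of named clusters alone, of neuron sub-clusters led by glial genes left out, and of free RNA subtracted within the Mt share comparison were chosen after seeing the data. Without the replicate block the counts were 0 lower for 5% Mt share or more, 11 higher and 0 lower for 1 to 5% Mt share, 0 higher and 2 lower for neuron-like against oligodendrocyte-like, 0 lower for dopaminergic-like and 0 higher for 1 to 5% within neuron-like. In that setting the counts were 0 higher for 1 to 5% within oligodendrocyte-like, 3 higher and 14 lower for neuron-like against the rest, 2 higher and 0 lower for oligodendrocyte-like against the rest, 0 higher and 1 lower for OPC-like against the rest and 1 higher for astrocyte-like against the rest. Under the same setting the counts were 0 higher and 1 lower for microglia-like against the rest and 5 higher for vascular-like against the rest. With free RNA subtracted the counts were 29 higher and 0 lower for neuron-like against oligodendrocyte-like, 8 higher and 4 lower for dopaminergic-like, 0 higher for 1 to 5% within neuron-like, 0 higher for 1 to 5% within oligodendrocyte-like and 30 higher and 1 lower for neuron-like against the rest. In that setting the counts were 2 higher and 6 lower for oligodendrocyte-like against the rest, 2 higher and 0 lower for OPC-like against the rest, 14 higher for astrocyte-like against the rest, 0 higher and 8 lower for microglia-like against the rest and 5 higher for vascular-like against the rest. Without the filter on low counts the counts were 2 lower for 5% Mt share or more, 2 lower for 1 to 5% Mt share, 2 lower for droplets, 5 higher for neuron-like against oligodendrocyte-like and 57 lower for dopaminergic-like. Under the same setting the counts were 1 lower for 1 to 5% within neuron-like, 1 lower for the difference between the 2 classes, 12 higher for oligodendrocyte-like against the rest, 2 higher for OPC-like against the rest and 5 higher for astrocyte-like against the rest. In that setting the counts were 0 higher for microglia-like against the rest. With nuclei under 1% Mt share alone the counts were 15 lower for dopaminergic-like, 19 lower for neuron-like against the rest, 0 lower for oligodendrocyte-like against the rest, 3 lower for OPC-like against the rest and 3 higher for astrocyte-like against the rest. Under the same setting the counts were 0 higher and 0 lower for microglia-like against the rest and 2 higher for vascular-like against the rest. With nuclei typed by their own markers the counts were 5 lower for neuron-like against oligodendrocyte-like, 7 lower for neuron-like against the rest, 3 higher for oligodendrocyte-like against the rest, 0 higher and 59 lower for OPC-like against the rest and 0 higher and 0 lower for microglia-like against the rest. In that setting the counts were 9 higher for vascular-like against the rest. With DESeq2 the counts were 0 lower for 1 to 5% Mt share, 4 lower for dopaminergic-like and 2 higher and 4 lower for oligodendrocyte-like against the rest. With the size factors of DESeq2 the counts were 2 higher and 4 lower for oligodendrocyte-like against the rest, 43 lower for OPC-like against the rest and 10 higher for microglia-like against the rest. With library totals the counts were 2 higher and 23 lower for oligodendrocyte-like against the rest and 22 higher and 1 lower for microglia-like against the rest. With at least 2000 UMIs the counts were 1 lower for oligodendrocyte-like against the rest, 2 higher for OPC-like against the rest, 3 higher for microglia-like against the rest and 3 lower for vascular-like against the rest. With doublets kept the counts were 14 higher for oligodendrocyte-like against the rest, 13 lower for OPC-like against the rest and 0 higher for microglia-like against the rest. With mitochondrial genes left out the counts were 1 lower for 1 to 5% within neuron-like and 1 lower for the difference between the 2 classes. With droplets of 10 to 49 UMIs the counts were 0 lower for droplets. Leaving out 1 rat at a time gave 1 to 2 lower for 5% Mt share or more, 0 to 1 lower for 1 to 5% Mt share, 37 to 68 lower for neuron-like against oligodendrocyte-like, 7 to 47 lower for dopaminergic-like and 29 to 60 higher for 1 to 5% within neuron-like. It gave 0 to 1 lower for 1 to 5% within neuron-like, 15 to 62 higher for 1 to 5% within oligodendrocyte-like, 0 to 1 lower for the difference between the 2 classes, 2 to 12 higher for oligodendrocyte-like against the rest and 1 to 2 lower for oligodendrocyte-like against the rest. It gave 6 to 33 lower for OPC-like against the rest, 5 to 13 higher for astrocyte-like against the rest, 0 to 1 lower for astrocyte-like against the rest, 0 to 11 higher for microglia-like against the rest and 2 to 6 lower for microglia-like against the rest. It gave 33 to 58 higher for vascular-like against the rest and 0 to 1 lower for vascular-like against the rest.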
